A study of Mus musculus with 13 samples.

Results

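The genes described here were 34 sphingolipid and barrier lipid genes of the mouse epidermis, chosen by name and read from the rows of the deposited count table that carry those names. The table held 25746 genes. All 34 were found and all 34 passed the filter on low counts. They fall into 5 roles: 14 genes of ceramide synthesis, 3 of ceramide conversion, 8 of sphingolipid breakdown, 5 of acylceramide formation and lipid transport, and 4 of the lipoxygenase pathway.

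The cells were keratinocytes of the interfollicular epidermis, the skin surface between the hairs, taken from C57/BL6 mice by FACS, and their RNA was read by the Smart-seq2 method. All 4 groups carried floxed alleles of Il12rb2, which encodes a chain of the interleukin-12 receptor. Floxed control mice (Il12rb2fl/fl, no Cre) gave 3 untreated libraries and 3 libraries after 1 day of Aldara, a cream with 5% imiquimod, an agonist of Toll-like receptor 7 that provokes psoriasis-like inflammation. Mice that also carried K14Cre (K14Cre/+ Il12rb2fl/fl, called Il12rb2-deleted here) gave 4 untreated libraries and 3 libraries after 1 day of Aldara. The keratin 14 promoter drives this Cre in keratinocytes, and other cell types of these mice keep the floxed alleles. Ages were not given. Neither a vehicle cream nor K14Cre on its own was analysed here. Whether each replicate was its own animal is not stated, so a p-value here measures the spread between these libraries, which may be technical.

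Ceramides are made from serine and a fatty acyl group by serine palmitoyltransferase, reduced, joined by a ceramide synthase to a fatty acid whose length the elongases set, and desaturated. In the upper epidermis, ceramides with ultra-long fatty acids are linked to linoleate, loaded into lamellar bodies as glucosylceramide or sphingomyelin, and secreted. Lipoxygenases then oxidise the linoleate, so that the lipid can be bound to the cornified envelope, and ceramidases release sphingosine. Inherited loss of several of these genes causes ichthyosis.

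Sequence just upstream of the transcription start is shown for 5 of the 6 members with the smallest p in an Aldara comparison, to show the CpG content that is compared below. The stretches are the 250 bases before the RefSeq start (GRCm38.p6), shortened where the GENCODE annotation places an exon of the gene itself, and each reads 5′ to 3′ on the gene's strand with CpG dinucleotides in capitals. Elovl4 (minus strand, chr9:83806306-83806555, 25 CpG, outside annotated genes), Slc27a4 (plus strand, chr2:29802384-29802633, 8 CpG, outside annotated genes) and Cers2 (plus strand, chr3:95314940-95315083, 12 CpG in 144 bases, within an intron of Cers2 and inside the antisense gene 6330562C20Rik) rose. Sgms1 (minus strand, chr19:32388513-32388762, 19 CpG, within an intron of Sgms1) and Alox12e (minus strand, chr11:70322629-70322780, 2 CpG in 152 bases, outside annotated genes) fell.
Elovl4: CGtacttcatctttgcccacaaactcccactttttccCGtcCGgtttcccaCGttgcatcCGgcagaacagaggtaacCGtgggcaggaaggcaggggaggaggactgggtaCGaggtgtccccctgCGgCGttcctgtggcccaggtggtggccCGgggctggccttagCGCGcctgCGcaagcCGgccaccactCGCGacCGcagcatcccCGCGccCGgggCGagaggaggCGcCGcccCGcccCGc
Slc27a4: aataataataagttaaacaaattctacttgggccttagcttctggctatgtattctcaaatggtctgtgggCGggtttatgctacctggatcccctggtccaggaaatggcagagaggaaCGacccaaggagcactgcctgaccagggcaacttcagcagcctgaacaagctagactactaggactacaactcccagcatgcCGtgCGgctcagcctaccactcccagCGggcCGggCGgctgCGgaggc
Cers2: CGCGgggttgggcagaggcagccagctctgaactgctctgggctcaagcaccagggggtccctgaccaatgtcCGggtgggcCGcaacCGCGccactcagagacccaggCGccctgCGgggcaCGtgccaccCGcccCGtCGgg
Sgms1: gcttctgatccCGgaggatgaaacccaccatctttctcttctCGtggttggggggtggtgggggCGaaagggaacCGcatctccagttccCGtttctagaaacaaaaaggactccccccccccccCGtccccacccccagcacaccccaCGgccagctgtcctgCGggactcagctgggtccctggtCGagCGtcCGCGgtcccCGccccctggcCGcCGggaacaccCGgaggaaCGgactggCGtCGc
Alox12e: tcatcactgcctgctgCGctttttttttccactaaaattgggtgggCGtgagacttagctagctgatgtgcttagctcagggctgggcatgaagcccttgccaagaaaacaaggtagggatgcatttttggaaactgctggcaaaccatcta
Asah1, also among the 6 with the smallest p, had no entry in the table of promoters, nor did Aloxe3 and Smpd3.

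Over the full 250 bases, the 6 members that rose with Aldara over both genotypes held a median of 21.5 CpG (range 8 to 25), and the 6 members that fell and had an entry held a median of 4.5 (range 1 to 19). The 2 ranges overlap, with Sgms1 the most CpG-rich member among those that fell and Slc27a4 the poorest among those that rose. The median was 16 over the 31 members with an entry and 6 over all 27025 genes in the table. Median GC content was 69.6% for members that rose, 57.4% for members that fell and 52.0% for all genes. These are descriptions of the sequence, with no test. Of 5 motifs searched on both strands, the E-box CACGTG occurred in 3 of the 31 members (Degs1, Cers2 and Cers6, 9.68%) and in 6.04% of all genes, and in Cers2 it began 129 bases before the start. The nuclear receptor half-site AGGTCA occurred in 16.1% of members and 13.8% of all genes, the STAT motif TTCNNNGAA in 9.68% and 7.14%, and the AP-1 motif TGANTCA in 3.23% and 6.85%. The grainyhead-like motif AACCGGTT occurred in none of the 31 members and in 0.126% of all genes. Of the 5 genes shown, Cers2 was the 1 with any of the 5 motifs. No motif contains another.

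Library depth ran from 5830034 to 22232478 counts, and levels are given as CPM, the depth-scaled counts of edgeR with TMM factors. Il12rb2 itself was not called lower in Il12rb2-deleted cells, either untreated (17.1 to 78.8 CPM in floxed control and 8.52 to 25.6 CPM in Il12rb2-deleted, adjusted p = 1, edgeR quasi-likelihood test) or after Aldara (1.98 to 8.14 CPM and 0 to 1.64 CPM, adjusted p = 0.982). The groups overlapped untreated and did not overlap after Aldara, where the log2 fold change was -2.14 (unadjusted p = 0.0214, edgeR). With Aldara, Il12rb2 was lower over both genotypes (log2 fold change -3.94, adjusted p = 0.000272, edgeR). The deposited gene counts do not show whether the floxed exon was read. The predicted gene Gm10800 took over 1% of the counts in 7 libraries and over 5% in 3, all untreated (floxed control replicate 2 and Il12rb2-deleted replicates 1 and 2). Basal keratinocyte markers such as Krt14 were abundant in every library, with a summed level of 25370 to 67480 CPM in untreated and 12660 to 21150 CPM in Aldara libraries. These ranges did not overlap, and 5 of the 7 basal markers were lower and 0 higher over both genotypes. Suprabasal markers summed to 2563 to 6059 CPM in untreated and 270.6 to 949.6 CPM in Aldara libraries, so the ranges did not overlap. Of 13 suprabasal markers, 6 were lower (Krt1, Krt10, Krtdap, Dsg1a, Sbsn and Tgm3) and 1 was higher (Ivl) over both genotypes. The 15 markers of sebaceous cells, the lipid-secreting cells of the follicle, summed to 1535 to 6405 CPM in untreated and 6239 to 12680 CPM in Aldara libraries, and 11 of the 15 were higher and 0 lower. Only Plin5 among the sebaceous markers was at 0 counts in some libraries (4 of 7 untreated and 2 of 6 Aldara), while Dsc1, Tgm3 and Casp14 were each at 0 in 1 Aldara library and Flg in 2 untreated ones. Fibroblast markers summed to 839 to 2038 CPM untreated and 64.3 to 357 CPM after Aldara, with 6 of 7 lower. Of the hair follicle markers 1 of 10 was higher and 2 were lower, and of the Langerhans cell and macrophage markers 0 of 7 were higher and 1 was lower. In Il12rb2-deleted cells 2 of these 7 were higher and 0 lower. Their summed level was 47.6 to 392 CPM (median 169.6) untreated and 136 to 753 CPM (median 340.2) after Aldara, while Cd207 was at 0 in 2 of 7 untreated and 5 of 6 Aldara libraries. T cell markers were lower for 2 of 4 tested, endothelial markers for 1 of 4 and melanocyte markers for 0 of 4. Of the 4 genes on the neutrophil list, S100a8 and S100a9 were the 2 tested, and both were higher. Ly6g was at 0 in 5 of 7 untreated and 4 of 6 Aldara libraries, and Csf3r in 4 of 7 and 3 of 6. These shifts run alongside the Aldara results below and their part in them was not tested. In bulk RNA, fewer cells of a type and less RNA per cell cannot be told apart.

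**Figure D1:**
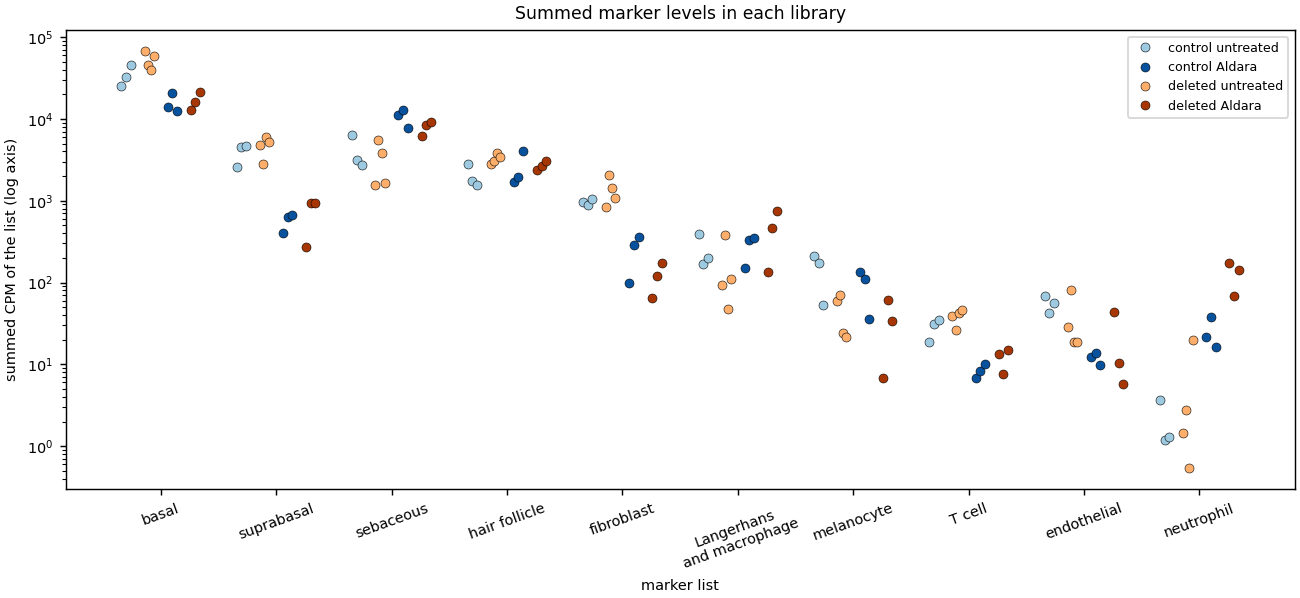
Summed CPM of each marker list (log axis) in each of the 13 libraries, 1 point a library, coloured by group. Suprabasal sums lie at 270.6 to 949.6 CPM in the 6 Aldara libraries, below all 7 untreated libraries (2563 to 6059 CPM), and sebaceous sums lie at 6239 to 12680 CPM against 1535 to 6405 CPM.

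With Aldara, the fatty acid elongase Elovl4, the fatty acid transporter Slc27a4 and the ceramide synthases Cers2 and Cers4 rose over both genotypes, while the sphingomyelin synthase Sgms1, the ceramidases Asah1 and Acer1, the lipoxygenases Alox12e and Aloxe3 and the palmitoyltransferase subunit Sptlc3 fell. Taking the mean of the Aldara effects in the 2 genotypes, 6 of the 34 members rose and 8 fell (edgeR quasi-likelihood test, Benjamini-Hochberg adjusted p under 0.05 over 16051 genes). The same rule called 24.9% of all genes, 13% higher and 11.9% lower, which is the background for the members' 14 of 34. No overlap between the 7 untreated and 6 Aldara libraries was seen for 4 members (Cers2, Elovl4, Sgms1 and Slc27a4) and for 11.8% of all genes. The median log2 fold change was -0.37 over the members and -0.15 over all genes. Of the 14, 10 were called at each of 19 other settings, and the other 4 were Degs1, Acer2, Abca12 and Alox12b.

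In floxed control cells alone, 2 members rose (Elovl4 and Slc27a4) and 0 fell, where 7.05% of all genes were called, 4.15% higher and 2.9% lower. An unadjusted p under 0.05 was reached by 10 members and by 21.3% of all genes. The median over members was -0.13, and over all genes it was also -0.13. Slc27a4 was no longer called without untreated replicate 2 or 3 or without Aldara replicate 2, which left Elovl4 as the 1 member called.

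In Il12rb2-deleted cells, 4 members rose (Elovl4, Slc27a4, Cers2 and Cers4) and 6 fell (Sptlc3, Sgms1, Sgms2, Asah1, Abca12 and Aloxe3), where 15.5% of all genes were called, 7.81% higher and 7.69% lower. The median over members was -0.32, and over all genes -0.09. The count fell from 10 to 6 without any 1 of the 3 Aldara libraries, and to 6 without the 3 libraries high in Gm10800. Only Elovl4 and Slc27a4 were called in each genotype alone. A call in 1 genotype and not in the other does not by itself show that the effects differ. The interaction, which tests for such a difference, called 0 members and 0% of all genes. No interaction was simulated, so a difference could go unseen.

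**Figure D2:**
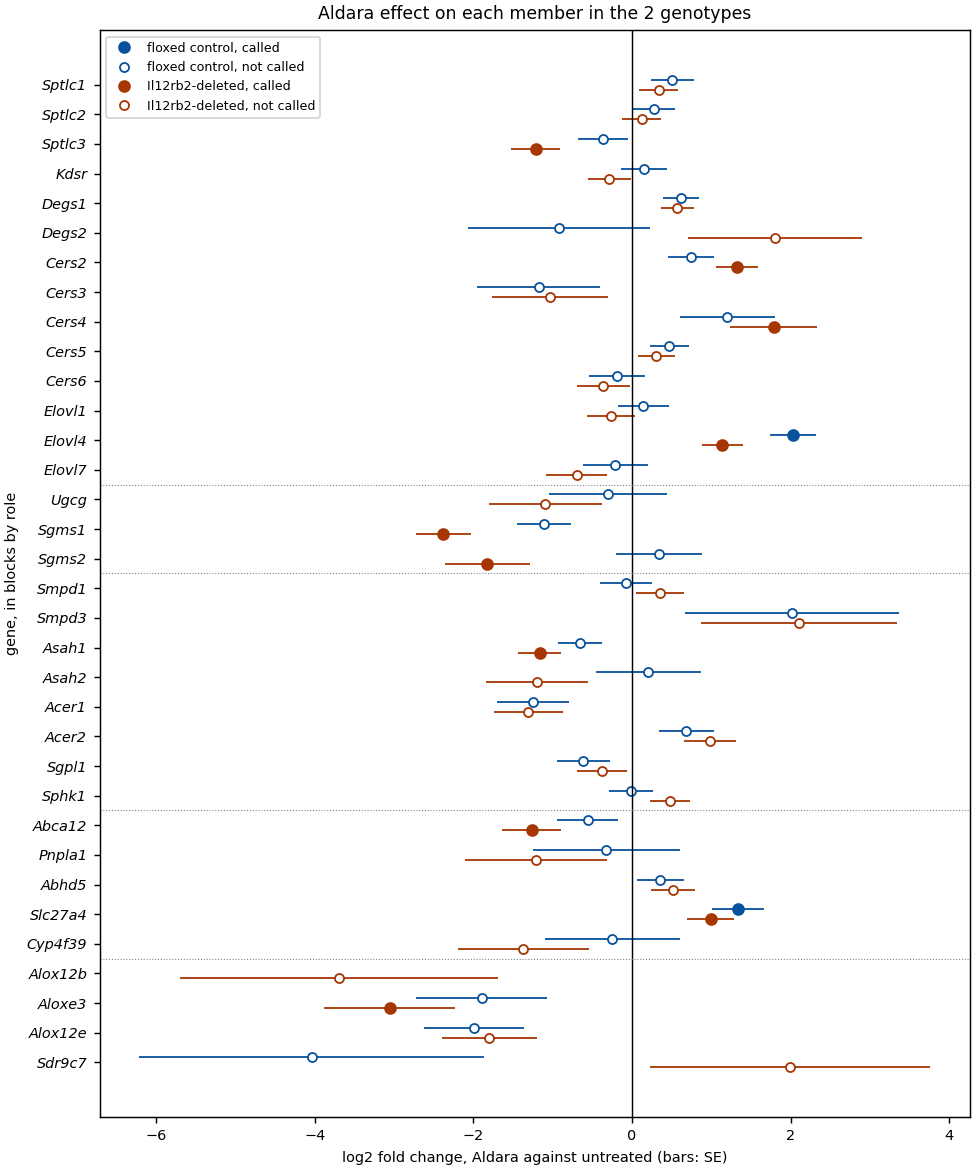
Log2 fold change of Aldara against untreated for each member (x axis) with its standard error, in floxed control and Il12rb2-deleted cells, with genes in blocks by role; filled points were called. Among called members, Elovl4 stands furthest right in floxed control cells at 2.03 and Aloxe3 furthest left in Il12rb2-deleted cells at -3.06. Alox12b, which was not called there, lies further left in Il12rb2-deleted cells at -3.69. Alox12b has no point in floxed control cells because all 3 Aldara libraries held 0 counts.

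Among ceramide synthesis genes, 4 of 14 rose, 1 fell and 9 were not called over both genotypes. Their summed level was higher in each Aldara library, at 1679 to 2635 CPM (median 1977), than in each untreated library, at 1076 to 1417 CPM (median 1234). Much of this sum was Elovl4 (median 217 CPM untreated and 580 CPM after Aldara), Cers4 (148 and 378 CPM) and Degs1 (213 and 308 CPM). The higher sum is thus no sign that the 14 genes rose together. Elovl4, which extends fatty acids to the ultra-long chains of acylceramides, had the smallest p of all members. It was read at 238, 177 and 217 CPM in untreated and 629.5, 1073 and 879 CPM in Aldara-treated floxed control cells. Elovl4 was read at 154, 276, 272 and 169.8 CPM in untreated and 529.9, 414 and 498 CPM in Aldara-treated Il12rb2-deleted cells. All 6 Aldara libraries stood above all 7 untreated ones. Elovl4 had a log2 fold change of 2.03 (SE 0.28, adjusted p = 0.0029, edgeR) in floxed control and 1.14 (SE 0.26, adjusted p = 0.00761) in Il12rb2-deleted cells, and 1.59 (SE 0.19, adjusted p = 6.03e-05) over both. Without the 7 libraries over 1% in Gm10800, the floxed control value was no longer called (adjusted p = 0.0785). Per kilobase of exon, Elovl4 was the third member in order in untreated libraries (median 71.6 CPM per kb) and the first after Aldara (median 192).

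Cers2, which makes ceramides with very long acyl chains, was read at 50.2, 41.8 and 43.5 CPM in untreated and 98.6, 77.4 and 50.9 CPM in Aldara-treated floxed control cells. Cers2 was read at 32.4, 38.6, 35.9 and 42.1 CPM in untreated and 136, 73.2 and 71.5 CPM in Aldara-treated Il12rb2-deleted cells. Every Aldara library exceeded every untreated one, though the lowest Aldara value (50.9) barely passed the highest untreated value (50.2). Cers2 had a log2 fold change of 1.03 (SE 0.20, adjusted p = 0.00142, edgeR) over both genotypes and 1.32 (SE 0.27, adjusted p = 0.00424) in Il12rb2-deleted cells, where it missed the threshold without the 3 libraries high in Gm10800 (adjusted p = 0.055). The antisense gene 6330562C20Rik overlaps the 5′ end of Cers2 and these libraries do not mark strand, so reads there cannot be assigned to either.

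Cers4, a ceramide synthase that is also found in sebaceous glands, was read at 387, 179.8 and 74.6 CPM in untreated and 611, 614 and 253 CPM in Aldara-treated floxed control cells. Cers4 was read at 33.7, 178, 148 and 55.8 CPM in untreated and 316, 356 and 399.9 CPM in Aldara-treated Il12rb2-deleted cells. The groups did not overlap in Il12rb2-deleted cells and did in floxed control cells, where untreated replicate 1 stood above Aldara replicate 3. Cers4 had a log2 fold change of 1.5 (SE 0.41, adjusted p = 0.0137, edgeR) over both genotypes and 1.79 (SE 0.55, adjusted p = 0.0387) among Il12rb2-deleted cells. The latter was lost without either of untreated replicates 1 and 4 or any 1 Aldara library. Cers4 varied most among the untreated libraries of the ceramide synthases, from 33.7 to 387 CPM. Its highest untreated value was in the library with the highest sebaceous marker sum among untreated libraries (6405 CPM), and its lowest in the library with the lowest (1535 CPM).

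Degs1, the desaturase that turns dihydroceramide into ceramide, was read at 213, 118 and 186 CPM in untreated and 281, 286 and 227 CPM in Aldara-treated floxed control cells. Degs1 was read at 205, 227, 228 and 254 CPM in untreated and 329, 343 and 348 CPM in Aldara-treated Il12rb2-deleted cells. Within each genotype the Aldara libraries stood above the untreated ones, by a small margin in floxed control cells. Degs1 had a log2 fold change of 0.60 (SE 0.15, adjusted p = 0.0093, edgeR) over both genotypes, and the call was lost without the 3 libraries high in Gm10800 (adjusted p = 0.0654). Degs1 was the second member in order per kilobase in both untreated (median 82.0 CPM per kb) and Aldara libraries (median 119).

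Sptlc3, a catalytic subunit of serine palmitoyltransferase, fell. It was read at 59, 52.7 and 66.8 CPM in untreated and 31.9, 62.5 and 44.2 CPM in Aldara-treated floxed control cells. Sptlc3 was read at 60.3, 48.3, 109 and 73.5 CPM in untreated and 23.3, 35.7 and 35.3 CPM in Aldara-treated Il12rb2-deleted cells. The groups overlapped in floxed control cells and were apart in Il12rb2-deleted cells. Sptlc3 had a log2 fold change of -0.79 (SE 0.22, adjusted p = 0.0156, edgeR) over both genotypes and -1.21 (SE 0.31, adjusted p = 0.015) among Il12rb2-deleted cells, the latter lost without Aldara replicate 1 (adjusted p = 0.0665).

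The 9 synthesis genes that were not called over both genotypes had log2 fold changes between -1.10 and 0.44. Sptlc1 and Sptlc2, the other subunits of the palmitoyltransferase, stood at 0.42 (adjusted p = 0.109, edgeR) and 0.20 (adjusted p = 0.464), and Kdsr, which reduces its product, at -0.06 (adjusted p = 0.854). Among ceramide synthases, Cers5 stood at 0.39 (adjusted p = 0.112) and Cers6 at -0.28 (adjusted p = 0.454). Cers3, which builds the ultra-long ceramides of the barrier, stood at -1.10 with a standard error of 0.53 (adjusted p = 0.151). Its libraries were spread widely, from 14.8 to 55.8 CPM untreated and from 2.21 to 40.8 CPM after Aldara. Elovl1 and Elovl7, elongases of shorter chains, stood at -0.06 (adjusted p = 0.876) and -0.45 (adjusted p = 0.272). Degs2, which makes phytoceramide, was low, at 0.233 to 12.1 CPM untreated and 0.205 to 8.62 CPM after Aldara.

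**Figure D3:**
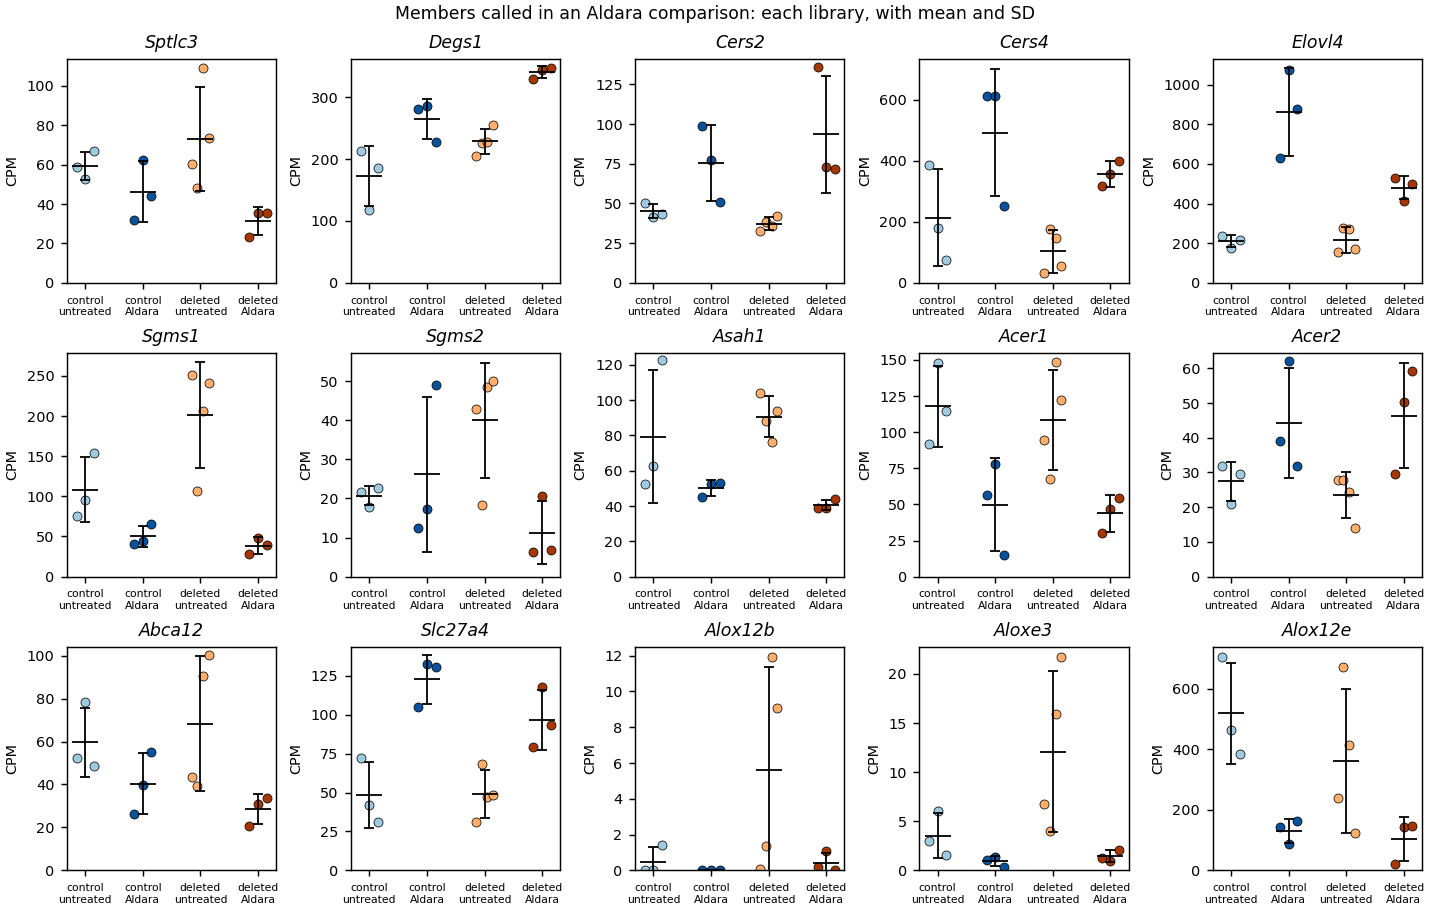
CPM in each library (points) with the mean and standard deviation of each group (bars) for the 15 members called in at least 1 Aldara comparison; each panel has its own linear axis from 0. Elovl4, Slc27a4 and Cers2 lie higher in all 6 Aldara libraries than in all 7 untreated ones, and Sgms1 lower.

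Of the 3 ceramide conversion genes, 1 fell over both genotypes and 2 were not called. Their summed level was 99.4 to 299.5 CPM (median 183) in untreated and 36.6 to 123 CPM (median 59.6) in Aldara libraries. Sgms1, which makes sphingomyelin from ceramide in the Golgi, was read at 75.6, 95.6 and 154 CPM in untreated and 41.2, 44.2 and 65.6 CPM in Aldara-treated floxed control cells. Sgms1 was read at 251, 107, 206 and 241 CPM in untreated and 27.8, 48.3 and 39.9 CPM in Aldara-treated Il12rb2-deleted cells. All 6 Aldara libraries stood below all 7 untreated ones. Sgms1 had a log2 fold change of -1.74 (SE 0.24, adjusted p = 0.000157, edgeR) over both genotypes. It was -2.38 (SE 0.35, adjusted p = 0.000777) in Il12rb2-deleted cells and -1.11 (SE 0.34, adjusted p = 0.0661) in floxed control cells. The interaction, which is the Aldara effect in Il12rb2-deleted cells minus that in floxed control cells, was -1.27 (SE 0.47, unadjusted p = 0.0163, adjusted p = 1).

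Sgms2, the sphingomyelin synthase of the plasma membrane, was read at 21.5, 17.9 and 22.8 CPM in untreated and 12.4, 17.2 and 49 CPM in Aldara-treated floxed control cells. Sgms2 was read at 42.8, 18.4, 48.6 and 50 CPM in untreated and 6.34, 20.7 and 6.77 CPM in Aldara-treated Il12rb2-deleted cells. Both pairs of groups overlapped. Sgms2 had a log2 fold change of -1.82 (SE 0.54, adjusted p = 0.0317, edgeR) in Il12rb2-deleted cells and 0.34 (adjusted p = 0.795) in floxed control cells, and over both it was not called (adjusted p = 0.173). Without floxed control Aldara replicate 3, which held 49.0 CPM, the floxed control value turned to -0.49 (adjusted p = 0.692). The call in Il12rb2-deleted cells was lost at 6 of 20 settings. Ugcg, which makes glucosylceramide, stood at -0.70 (SE 0.51, adjusted p = 0.368) over both genotypes and was low throughout, at 2.28 to 7.88 CPM untreated and 1.15 to 8.18 CPM after Aldara.

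Of 8 sphingolipid breakdown genes, 1 rose, 2 fell and 5 were not called over both genotypes. The 2 alkaline ceramidases went opposite ways. Acer1, the alkaline ceramidase typical of differentiated epidermis, was read at 91.8, 148 and 115 CPM in untreated and 56.3, 78.1 and 15 CPM in Aldara-treated floxed control cells. Acer1 was read at 94.9, 67.7, 148 and 122 CPM in untreated and 30.1, 46.5 and 54.6 CPM in Aldara-treated Il12rb2-deleted cells. Within each genotype the Aldara libraries stood below the untreated ones. Acer1 had a log2 fold change of -1.28 (SE 0.31, adjusted p = 0.00764, edgeR) over both genotypes, -1.25 (adjusted p = 0.114) in floxed control cells and -1.31 (adjusted p = 0.0538) in Il12rb2-deleted cells.

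Acer2, the alkaline ceramidase of the Golgi, was read at 31.8, 21 and 29.6 CPM in untreated and 39.1, 62.1 and 31.7 CPM in Aldara-treated floxed control cells. Acer2 was read at 27.8, 27.9, 24.4 and 14 CPM in untreated and 29.7, 50.4 and 59.1 CPM in Aldara-treated Il12rb2-deleted cells. The Il12rb2-deleted groups were apart and the floxed control groups overlapped narrowly. Acer2 had a log2 fold change of 0.84 (SE 0.24, adjusted p = 0.0184, edgeR) over both genotypes. The call was lost at 5 of 19 settings, among them without floxed control untreated replicate 2, floxed control Aldara replicate 2 or Il12rb2-deleted Aldara replicate 3.

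Asah1, the acid ceramidase of the lysosome, was read at 52.7, 62.8 and 123 CPM in untreated and 45.1, 52.8 and 53.2 CPM in Aldara-treated floxed control cells. Asah1 was read at 104, 88.1, 76.3 and 94 CPM in untreated and 38.7, 38.8 and 43.8 CPM in Aldara-treated Il12rb2-deleted cells. The groups were well apart in Il12rb2-deleted cells and overlapped narrowly in floxed control cells. Asah1 had a log2 fold change of -0.91 (SE 0.19, adjusted p = 0.00283, edgeR) over both genotypes and -1.16 (SE 0.27, adjusted p = 0.00891) among Il12rb2-deleted cells. The other breakdown genes were not called over both genotypes. Sgpl1, the lyase that splits sphingosine-1-phosphate, stood at -0.50 (adjusted p = 0.135), and Sphk1, the kinase that makes it, at 0.23 (adjusted p = 0.405). Smpd1, the acid sphingomyelinase, stood at 0.14 (adjusted p = 0.7), and Asah2, the neutral ceramidase, at -0.50 (adjusted p = 0.481). Smpd3, a neutral sphingomyelinase, was barely read, at 0 to 1.03 CPM untreated and 0.894 to 4.23 CPM after Aldara, with a log2 fold change of 2.06 (SE 0.91, adjusted p = 0.118).

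Among the 5 genes of acylceramide formation and lipid transport, 1 rose, 1 fell and 3 were not called over both genotypes. Slc27a4, a fatty acid transport protein and acyl-CoA synthetase whose loss disturbs the barrier, was read at 72.3, 42 and 31.4 CPM in untreated and 105, 132 and 131 CPM in Aldara-treated floxed control cells. Slc27a4 was read at 30.9, 68.5, 47.2 and 48.4 CPM in untreated and 79.1, 118 and 93.5 CPM in Aldara-treated Il12rb2-deleted cells. Every Aldara library exceeded every untreated one. Slc27a4 had a log2 fold change of 1.34 (SE 0.32, adjusted p = 0.023, edgeR) in floxed control cells, 0.99 (SE 0.30, adjusted p = 0.0344) in Il12rb2-deleted cells and 1.16 (SE 0.22, adjusted p = 0.00128) over both. The calls within a genotype were the less firm ones, lost at 5 of 21 settings in floxed control cells and at 7 of 20 in Il12rb2-deleted cells.

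Abca12, which loads glucosylceramide into lamellar bodies, was read at 52.2, 78.3 and 48.5 CPM in untreated and 26.4, 39.9 and 55.1 CPM in Aldara-treated floxed control cells. Abca12 was read at 43.3, 39.4, 90.4 and 100.3 CPM in untreated and 20.6, 31 and 33.9 CPM in Aldara-treated Il12rb2-deleted cells. The groups overlapped in floxed control cells and were apart in Il12rb2-deleted cells. Abca12 had a log2 fold change of -0.91 (SE 0.27, adjusted p = 0.0201, edgeR) over both genotypes and -1.26 (SE 0.37, adjusted p = 0.0311) among Il12rb2-deleted cells. The former was lost without floxed control untreated replicate 2 or Aldara replicate 1, and the latter at 6 of 20 settings.

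Pnpla1 and Cyp4f39, which esterify and hydroxylate the ultra-long acyl chain of acylceramides, stood at -0.77 (SE 0.64, adjusted p = 0.434, edgeR) and -0.81 (SE 0.59, adjusted p = 0.362) over both genotypes. In Il12rb2-deleted Aldara replicate 1, Pnpla1 was at 0 counts and Cyp4f39 at 0.102 CPM, against 2.81 to 12.8 CPM and 7.41 to 27.2 CPM in the other 5 Aldara libraries. The same library held the lowest suprabasal marker sum (270.6 CPM). Among Aldara libraries it also held the lowest sebaceous sum (6239 CPM) and the highest sum of the neutrophil list (174.1 CPM). Any link of these sums to Pnpla1 and Cyp4f39 was not tested. Abhd5, the partner of Pnpla1, stood at 0.44 (SE 0.20, adjusted p = 0.134).

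Of the 4 lipoxygenase pathway genes, 3 fell and 1 was not called over both genotypes. Their summed level was 155 to 709 CPM (median 442) untreated and 25.6 to 163 CPM (median 146) after Aldara. Most of this sum was Alox12e. Of the CPM per kb of Alox12b, Aloxe3 and Alox12e together, Alox12e held 85.8% to 99.8% untreated and 96.5% to 99.9% after Aldara. Alox12e, the epidermal-type 12-lipoxygenase, was read at 706, 465 and 385 CPM in untreated and 142, 86.6 and 163 CPM in Aldara-treated floxed control cells. Alox12e was read at 241, 672, 414 and 122 CPM in untreated and 21.3, 144 and 146 CPM in Aldara-treated Il12rb2-deleted cells. The groups were far apart in floxed control cells and overlapped in Il12rb2-deleted cells, where untreated replicate 4 stood below Aldara replicates 2 and 3. Alox12e had a log2 fold change of -1.89 (SE 0.43, adjusted p = 0.00489, edgeR) over both genotypes, -1.99 (adjusted p = 0.0699) in floxed control cells and -1.80 (adjusted p = 0.0542) in Il12rb2-deleted cells. Per kilobase of exon it was the most abundant member before treatment (median 147 CPM per kb) and the fourth after Aldara (median 50.6).

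Aloxe3, the hydroperoxide isomerase that acts on linoleate in acylceramide, was read at 3.02, 6.08 and 1.53 CPM in untreated and 1.09, 1.4 and 0.389 CPM in Aldara-treated floxed control cells. Aloxe3 was read at 6.77, 3.96, 15.9 and 21.7 CPM in untreated and 1.23, 0.999 and 2.12 CPM in Aldara-treated Il12rb2-deleted cells. Within each genotype the groups were apart, narrowly in floxed control cells, at levels of at most 6.08 CPM there. Aloxe3 had a log2 fold change of -2.48 (SE 0.58, adjusted p = 0.0056, edgeR) over both genotypes and -3.06 (SE 0.82, adjusted p = 0.0205) among Il12rb2-deleted cells, the latter lost without untreated replicate 4 or Aldara replicate 1 or 2.

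Alox12b, the 12R-lipoxygenase that acts before Aloxe3, was read at 0, 0 and 1.44 CPM in untreated and 0, 0 and 0 CPM in Aldara-treated floxed control cells. Alox12b was read at 0.0857, 1.39, 11.9 and 9.1 CPM in untreated and 0.205, 1.07 and 0 CPM in Aldara-treated Il12rb2-deleted cells. It was near or at 0 in most libraries, and 2 untreated Il12rb2-deleted libraries held most of its counts. Against a floor of 3 counts over the 3 floxed control Aldara libraries (0.0669 CPM), the untreated mean of 0.481 CPM was 7.19-fold higher. The floor leaves out the spread between libraries, and the untreated mean rested on 1 library, so this is no firm lower limit. The call over both genotypes (adjusted p = 0.0499, edgeR) was lost at 11 of 19 settings. Sdr9c7, a dehydrogenase of the oxidised acylceramide, was at or under 2.86 CPM in every library and was not called (adjusted p = 0.623 over both genotypes).

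**Figure D4:**
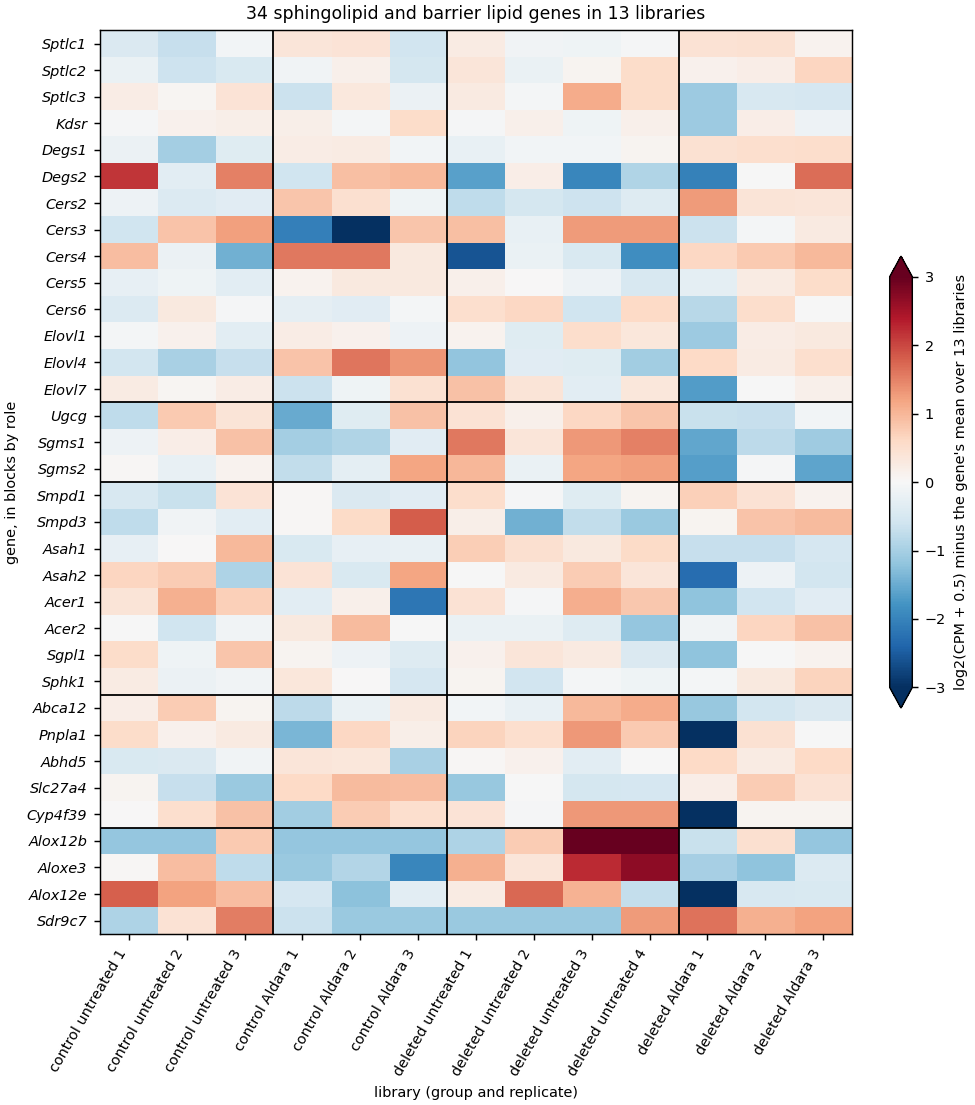
Log2(CPM + 0.5) of each member minus its mean over the 13 libraries (colour, cut at -3 and 3), with genes in blocks by role and libraries by group and replicate. The 6 Aldara columns are red for Elovl4 and Slc27a4 and blue for Sgms1, and Il12rb2-deleted Aldara replicate 1 stands apart for Pnpla1, at 0 counts, and Cyp4f39, at 0.102 CPM.

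Within gene families, the share of each paralog was taken as its CPM per kb over the sum of the family's genes among the members, so that depth cancels. Relatives that are not members were left out of these sums. Among them are Elovl3 and Elovl5, which rose with Aldara as given below, and Acer3. A share is thus not the share of all elongases or of all alkaline ceramidases. Elovl4 held 37.2% to 59.5% of the elongase sum (Elovl1, Elovl4 and Elovl7) in untreated libraries and 64.6% to 86.1% after Aldara, with no overlap. Elovl7 held a median of 16% untreated and 5.74% after Aldara.

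Among the 5 ceramide synthases, no member held most of the sum in untreated libraries, where the medians were 27.3% for Cers3, 21.9% for Cers4, 21.4% for Cers5, 19.6% for Cers2 and 12.3% for Cers6. After Aldara, Cers4 came first at 37% (range 29.8% to 53.7%), and Cers3 held 6.91% (range 0.728% to 18.1%). The untreated ranges of Cers3 (6.93% to 33%) and Cers4 (5.72% to 48.1%) overlap those after Aldara.

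Acer2 held 3.74% to 12.3% of the sum of Acer1 and Acer2 in untreated libraries and 19.1% to 41.7% after Aldara, with no overlap. Acer1 stayed the larger of the pair in every library. Sptlc3 held a median of 77.2% of the sum of Sptlc2 and Sptlc3 untreated and 62.1% after Aldara, and Sgms1 a median of 75.9% of the sum of Sgms1 and Sgms2 untreated and 63.3% after Aldara, both with overlapping ranges. Degs1 held a median of 98.8% of the desaturase sum in both. These shares are descriptions of the same values as the fold changes above and were not tested.

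**Figure D5:**
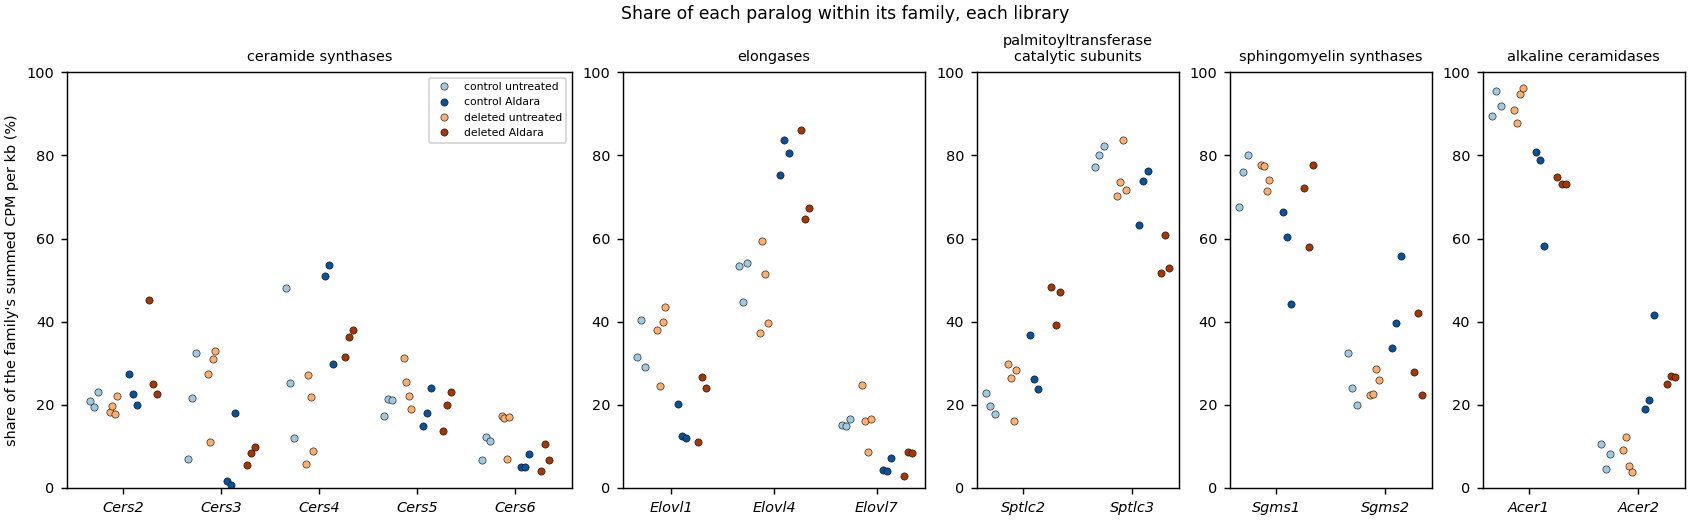
Share of each paralog (%) in the summed CPM per kb of its family's genes among the members, 1 point a library coloured by group. Relatives that are not members, such as Elovl3, are left out. Elovl4 lies at 64.6% to 86.1% in Aldara libraries against 37.2% to 59.5% untreated, and Acer2 at 19.1% to 41.7% against 3.74% to 12.3%.

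Genes around these members were followed in 5 lists of 88 genes, of which 82 were tested. Over both genotypes 17 rose and 16 fell, which is 33 of 82 where 24.9% of all genes were called. In floxed control cells 9 rose and 3 fell, where 7.05% of all genes were called, and in Il12rb2-deleted cells 13 rose and 11 fell, where 15.5% were. The floxed control count was 1 without untreated replicate 2, 2 without untreated replicate 3 or Aldara replicate 1, and 4 without Aldara replicate 2.

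Among partners of elongation and ceramide synthesis, 7 of 15 tested rose, 1 fell and 7 were not called over both genotypes (median log2 fold change 1.01, against -0.15 for all genes). The fatty acid elongation cycle runs through an elongase, a ketoreductase, a dehydratase and an enoyl reductase. The ketoreductase Hsd17b12 rose by 1.44 on the log2 scale, the dehydratases Hacd2 and Hacd3 by 1.17 and 1.16, and the enoyl reductase Tecr by 1.01. The elongase Elovl3, which is also on the sebaceous marker list, rose by 3.49 over both genotypes. In floxed control cells Elovl3 was read at 34.5 to 109 CPM untreated and at 449.5 to 735 CPM after Aldara. Elovl5 rose by 1.01 and Fa2h, which hydroxylates the acyl chain, by 2.12. Sptssa, a small subunit of the palmitoyltransferase, fell by 0.69 on the log2 scale.

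Of 16 glycosphingolipid genes, 1 rose and 6 fell. The lysosomal enzymes Glb1 and Arsa fell by 1.17 and 0.80 on the log2 scale. Ugt8a and Gal3st1, which make galactosylceramide and its sulfate, fell by 4.90 and 2.20 from low levels. St3gal5, the synthase of the ganglioside GM3, rose by 4.75, from at most 4.58 CPM in any untreated library to 20.5 to 50.3 CPM after Aldara.

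Of 11 genes of sphingomyelin, ceramide-1-phosphate and ceramide transport, 3 rose and 2 fell. The ceramide transporter Col4a3bp, which feeds ceramide to Sgms1, fell by 0.92 on the log2 scale, and Samd8, a relative of the sphingomyelin synthases, by 0.88. Cptp, which carries ceramide-1-phosphate, rose by 1.57, Smpdl3b by 2.99 and the saposin precursor Psap by 0.57. Of 15 genes of sphingosine-1-phosphate metabolism and its receptors, 1 rose (Aldh3a2, 1.03, a fatty aldehyde dehydrogenase) and 2 fell (Acer3, -1.08, another alkaline ceramidase, and S1pr5, -1.35, a receptor).

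Of 25 tested partners of acylceramides, lamellar bodies and cornified lipids, 5 rose and 5 fell, so the list had no common direction. Pnpla5 (3.19), Pparg (2.07), Acsl4 (1.09), Ppara (0.70) and Dgat1 (0.64) rose, where Pparg and Ppara are nuclear receptors of lipid metabolism and Dgat1 makes triglyceride. Pnpla3 (-3.56), Rora (-1.82), Slc27a3 (-1.80), Lipm (-1.74) and Acsl1 (-1.65) fell, where Lipm is a lipase of differentiated keratinocytes and Acsl1 an acyl-CoA synthetase. Pparg and Elovl3 belong to the sebaceous marker list too.

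Deletion of Il12rb2 was compared within each treatment. In untreated cells it called 0 members, as it called 0% of all genes (edgeR quasi-likelihood test; DESeq2 called 22 of all genes and 0 members). An unadjusted p under 0.05 was reached by 4 members and by 3.73% of all genes. These were Sgms1 at 0.89 (SE 0.32, unadjusted p = 0.0149), Sptlc2 at 0.64 (SE 0.25, unadjusted p = 0.0203), Aloxe3 at 1.78 (SE 0.77, unadjusted p = 0.0351) and Degs2 at -2.75 (SE 1.11, unadjusted p = 0.0261), each with adjusted p = 1. The groups did not overlap for 1 member, Sptlc2, and for 6.03% of all genes.

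After Aldara, deletion again called 0 members and 0% of all genes (DESeq2 called 24 of all genes and 0 members). An unadjusted p under 0.05 was reached by 3 members and by 4.3% of all genes. Elovl4 was lower in each Il12rb2-deleted Aldara library than in each floxed control one, with a log2 fold change of -0.84 (SE 0.28, unadjusted p = 0.00819, adjusted p = 0.982, edgeR). Sgms2 stood at -1.22 (SE 0.55, unadjusted p = 0.0434). Sdr9c7 was read at 1.79 to 2.86 CPM in the 3 Il12rb2-deleted Aldara libraries and at 0 to 0.192 CPM in the floxed control ones (unadjusted p = 0.0468). The groups did not overlap for 5 of the 34 members (Degs1, Elovl4, Smpd1, Asah1 and Sdr9c7) and for 9.09% of all genes.

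The interaction called 0 members and 0% of all genes (edgeR; DESeq2 called 2 of all genes and 0 members). An unadjusted p under 0.05 was reached by 4 members and by 3.36% of all genes. Besides Sgms1, these were Sgms2 at -2.17 (SE 0.76, unadjusted p = 0.0119), Elovl4 at -0.89 (SE 0.38, unadjusted p = 0.0321) and Sdr9c7 (unadjusted p = 0.0467), each with adjusted p = 1. The Aldara effect on Elovl4 was the larger in floxed control cells and the effect on both sphingomyelin synthases lay lower in Il12rb2-deleted cells, but no difference passed adjustment.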

How the data were processed

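Counts per gene were read in 13 Smart-seq2 libraries, which mark neither strand nor molecules. The authors deposited raw read counts, whole numbers that were not normalized. Per the submitters' processing notes, STAR, featureCounts (Subread) and build GRCm38 were used. Versions, annotation release, strandedness and the handling of multi-mapping reads were not given in the sources at hand, so genes that share reads with a close copy, an overlapping gene or an antisense gene are uncertain. Symbols came from the count table, and coordinates and exonic lengths from GENCODE M21. Groups came from the sample titles.

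In R 4.3.3, edgeR 4.0.16 kept genes with filterByExpr (minimum count 10), scaled by TMM and fitted 1 coefficient a group over all 13 libraries. Quasi-likelihood F tests gave Aldara against untreated in each genotype and over both, deletion in each treatment, and the interaction. P-values were adjusted by Benjamini-Hochberg over 16051 genes and called under 0.05. SE is the log2 fold change over the square root of F. CPM uses the TMM factors, and CPM per kb divides by exonic length. Alternatives were RLE scaling, DESeq2 1.42.0, limma 3.58.1 voom, no filter, only the groups compared, a replicate block, limits on Gm10800, and each library left out. Steps were tested on simulated counts. Simulated 2-fold Aldara changes were recovered for 10 of 100 genes in floxed control cells, 7 of 100 in Il12rb2-deleted cells and 47 of 100 over both genotypes. For 4-fold changes these were 75, 69 and 95 of 100. The changed genes were drawn only from those above a set average level. These rates therefore do not describe members read at few counts, such as Aloxe3 and Alox12b. No change by deletion or interaction was simulated.

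The members and lists were chosen with earlier results of these data known. The rule for names takes every member, with each library's value for those called, up to 8 called genes of a pathway list (some called genes are not reported here), and promoters of up to 6 called members by smallest p. The letters of the STAT motif were corrected after the data were seen. Promoter sequence is from RefSeq on GRCm38.p6, where 31 of the 34 members had an entry.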

Additional observations from a re-analysis of the deposited data

Results flagged for a closer look

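In each group of 4 libraries, the distance of the outermost library to its nearest neighbour was compared with the whole range of the group and with Dixon's 95% limit. Of 34 members tested in untreated Il12rb2-deleted cells, the 1 group of 4 libraries, 2 had a library that stood apart, where chance gives about 1 in 20. Cers6, a ceramide synthase, was read at 34.37 CPM in replicate 3 and at 74.05 to 79.61 CPM in the other 3 libraries (gap over range 0.877). Sdr9c7 was read at 2.114 CPM in replicate 4 and at 0 CPM in the other 3 (gap over range 1).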

How the results depend on the processing

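Over both genotypes, members called were 14, and 12 to 17 with 1 library left out. In floxed control cells they were 2, but 5 with DESeq2, 4 with limma voom, 0 without libraries over 1% in Gm10800, 1 without those over 5%, a limit chosen after seeing the data, and 1 to 3 with 1 library left out. In Il12rb2-deleted cells they were 10, but 6 with a replicate block (5 of them shared), 6 without libraries over 5% in Gm10800, and 6 to 12 with 1 library left out. The replicate block changed no other count by over 1.5 times. The main fit had no block, since the replicate numbers are not stated to pair the samples. Deviations from group means correlated above 0.1 for 6 of 18 same-numbered pairs (median -0.000399, range -0.163 to 0.421). For pairs with different numbers it was 6 of 45 (median -0.00216, range -0.445 to 0.369). The share above 0.1 was larger for same-numbered pairs, and whether the numbers mark a pairing was not tested. The 1% limit leaves no Il12rb2-deleted Aldara library, so it could not be fitted for the comparisons that need one. Counts over all genes in floxed control cells were 1132, but 2041 with DESeq2, 52 (3 higher and 49 lower) without libraries over 1% in Gm10800, 270 without those over 5%, and 215 to 1451 with 1 library left out (the lower ones being 215 and 288 when untreated replicate 2 or 3 was dropped, 422 when Aldara replicate 1 was, and 618 when Aldara replicate 2 was). In Il12rb2-deleted cells they were 2489, but 1466 without libraries over 5% in Gm10800 and 1650 to 2764 with 1 left out, and over both 3994, but 2622 and 3142 to 4004. Pathway genes in floxed control cells were 12, but 19 with DESeq2, 19 with limma voom, 0 and 5 under the 1% and 5% limits, and 1 to 13 with 1 left out; they were 15 to 27 in Il12rb2-deleted cells (15 without Aldara replicate 1) and 26 to 35 over both. Deletion called 0 of all genes, but 22 with DESeq2 and 3 without the filter in untreated cells, and 24 and 1 after Aldara; the interaction called 0, but 2 with DESeq2 and 1 without floxed control untreated replicate 3. Members and pathway genes stayed at 0 there in all fits run. In floxed control cells, Sgms2 turned to -0.49 without Aldara replicate 3 (up to 0.68 with another library left out), and the fitted value of Alox12b, which depends on the prior count, ran from -6.34 to 0, the latter without untreated replicate 3, the 1 library there with counts. The cause was not tested for the other changes. Members below about 2 CPM, such as Alox12b, Sdr9c7 and Smpd3, and Degs2 and Aloxe3 in part, rest on few counts. Aloxe3 held 8 to 31 counts in the 6 Aldara libraries.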

Other observations

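In untreated libraries Alox12e and Cers4 were both highest in floxed control replicate 1 (706 and 387 CPM), the library with the largest sebaceous marker sum among them (6405 CPM) and the smallest suprabasal sum (2563 CPM). Alox12e was lowest in Il12rb2-deleted replicate 4 (122 CPM), where the sebaceous sum was 1656 CPM, and Cers4 was lowest in Il12rb2-deleted replicate 1 (33.7 CPM), where it was 1535 CPM. With Aldara the sebaceous sum reached 6239 to 12680 CPM, while Alox12e was read at 21.3 to 163 CPM and Cers4 at 253 to 614 CPM. The 2 genes were thus highest in the same untreated library, and each was lowest in 1 of the 2 untreated libraries with the smallest sebaceous sums. These are values of 7 and 6 libraries, with no test, and the part of sebaceous cells in them was not tested.

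The members differed in how steady they were among untreated libraries. The coefficient of variation over the 7 untreated libraries was 8.39% for Kdsr, 14.1% for Cers2 and 14.5% for Cers5, and at the other end 120% for Degs2, 136% for Sdr9c7 and 145% for Alox12b, genes read at 3 to 171, 0 to 59 and 0 to 153 counts a library. The 7 libraries hold both genotypes, so each value includes any difference between them.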
